A study of Mus musculus with 6 samples.

Results

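The genes described here encode the proteins of the cytosolic ribosome. They were compared between MICT1 KO and Scr cells of a brown fat line after differentiation. They were picked by gene symbol (Rpl or Rps with a number, Rpsa, and Rplp0, Rplp1 and Rplp2). The S6 kinase genes and symbols that contain -ps were left out. This gave 82 of the 13283 genes in the deposited table, 50 of the large subunit and 32 of the small subunit. The symbols fix the members, but the group was chosen with earlier results of the same comparison in view, so counts over the members are a description of it.

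The study asked how gene expression in brown adipocytes depends on MICT1, a microprotein of thermogenic fat. The 3 Scr libraries came from immortalized mouse BAT cells that stably express Cas9 and carry a scrambled guide RNA, and their label gives the genotype WT. The 3 MICT1 KO libraries came from the same line, edited with guides against MICT1. The study made 2 such knockout pools with different guides, not clones, and the labels do not tie a library to either pool. All 6 cultures were differentiated, and on day 6 they received 10 µM forskolin, an activator of adenylyl cyclase, for 6 h. The methods call replicates biological, and since every library is from the same cell line, p-values measure only the spread between these libraries. No value for the targeted gene was used here, and the knockout was therefore not checked in these libraries.

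A ribosome joins a small subunit, which decodes the mRNA, to a large subunit, which forms the peptide bond, and nearly every ribosomal protein is present once in each particle. The mRNAs of these proteins usually begin with a run of pyrimidines, the terminal oligopyrimidine (TOP) motif, through which mTORC1 and LARP1 control their translation. In brown fat the same machinery makes the enzymes and uncoupling protein of the thermogenic cell.

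Promoter sequence was looked up because the members rose together. RefSeq promoters on GRCm38.p6 were found for 62 of the 82 members, with 73 start sites between them, each covering 250 bases before the start and 50 after it. In these windows the longest run of C and T that touched the 20 bases around the start was at least 8 bases long in 48.4% of members, against 16.8% of the tested genes and 15.8% of all genes with a promoter. The stretches of 30 bases below show 4 genes with large rises, a pair with long runs, and the pair of genes that fell. Capitals mark the run of C and T.

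Rpl12: gagcaggatccgTCTTTTCggctttcggct

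Rps2: cgagatctcgcgCTTCTTggagcactataa

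Rps10: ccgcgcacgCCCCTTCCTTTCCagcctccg

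Rps12: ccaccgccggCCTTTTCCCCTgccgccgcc

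Rpl7a: cacaaTTCCCTCTTCTTTCTTTCTCCagca

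Rpl27a: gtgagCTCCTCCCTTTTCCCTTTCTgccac

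Rpl22l1: cgcaagcccgTTCTCTTCCCacggctgcag

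Rpl9: gcgacacgcagggCCCTgacggattacaag

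These stretches lie on GRCm38 at chr2:32961701-32961730 for Rpl12 (plus strand), chr17:24720055-24720084 for Rps2 (plus), chr17:27635227-27635256 for Rps10 (minus) and chr10:23787182-23787211 for Rps12 (minus). Those of Rpl7a and Rpl27a lie at chr2:26910788-26910817 and chr7:109519186-109519215, both on the plus strand. Those of Rpl22l1 and Rpl9 lie at chr3:28805499-28805528 (plus) and chr5:65391422-65391451 (minus). The run was 10 bases long in Rpl22l1, which fell, and 7 bases in Rpl12, which rose most. Among the 62 members with a promoter, the 30 with a run of at least 8 bases had a median log2 fold change of 0.36 and the 32 without one a median of 0.41. The letters CCGGAAG, part of the site of ETS-family factors, were found on either strand in 40.3% of members, 20.3% of tested genes and 9.93% of all genes with a promoter. The 25 members with these letters had a median log2 fold change of 0.36 and the 37 without them a median of 0.42. AAGATGGCG, the core of the YY1 site, was found on either strand in 6.45% of members and 3.61% of tested genes. TATAAA on the sense strand within 40 bases before the start was found in 1.61% and 1.80%. CCGGAAG ends in the AAG with which AAGATGGCG begins, so matches to these can overlap. These are matches of letters and no binding was measured.

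Most ribosomal protein mRNAs were higher in MICT1 KO cells, by a modest and rather even amount. By limma-trend on log2(value + 1), with the Benjamini-Hochberg adjustment over the 12507 genes tested and a threshold of 0.05, 70 of the 82 members were higher, 2 were lower and 10 did not pass. Of all tested genes, 28.5% were higher and 28.3% lower, 56.9% in either direction. The median log2 fold change of the members was 0.39, a fold of 1.31, beside -0.0053 for all tested genes. The middle of the members was narrow, with quartiles at 0.28 and 0.48, beside -0.31 and 0.36 for all tested genes. A rise of at least 1.5-fold in the means was reached by 10 members and a rise of at least 2-fold by 0. In 71 members every MICT1 KO library lay above every Scr library, and in 2 (Rpl22l1 and Rpl37) every one lay below, while 30.9% and 31.2% of all tested genes were apart in these directions and 62% in either.

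**Figure D1:**
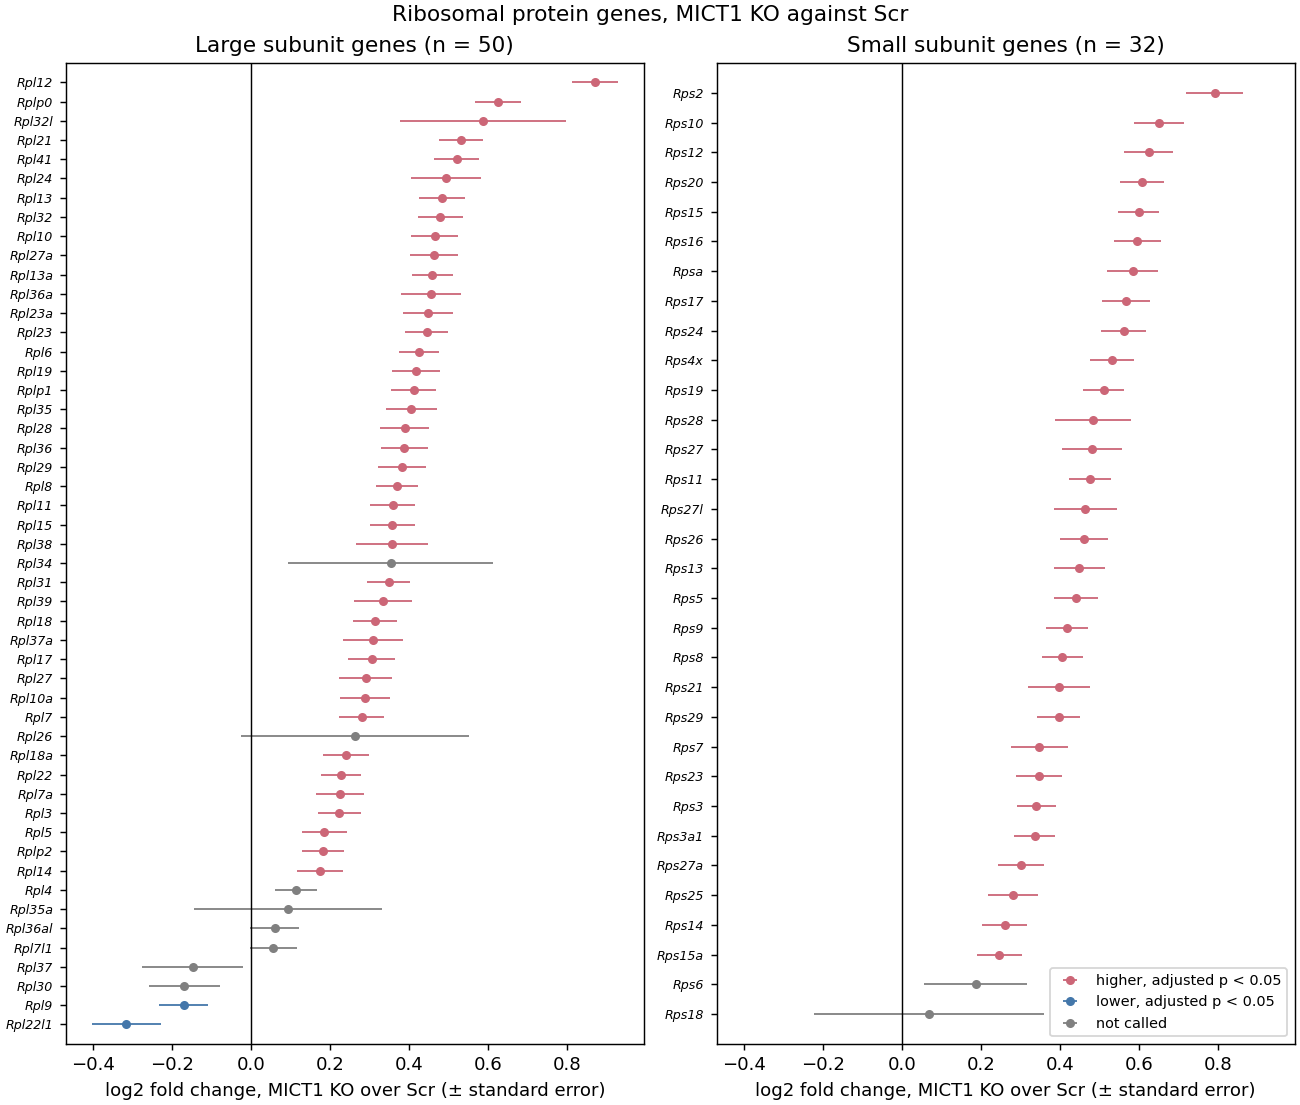
Log2 fold change of each of the 82 ribosomal protein genes in MICT1 KO over Scr, with its standard error, for the large subunit (left) and the small subunit (right). Points right of the zero line are higher in MICT1 KO, and the 4 points left of it (Rpl22l1, Rpl9, Rpl30 and Rpl37) all belong to the large subunit.

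The members took a larger share of the library in MICT1 KO cells. They held 2.48%, 2.56% and 2.59% of the summed values in Scr libraries 1 to 3 and 3.53%, 3.27% and 3.37% in MICT1 KO libraries 1 to 3. The groups did not overlap, and the means were 2.54% ± 0.058 and 3.39% ± 0.13 (SD, n = 3 each). In bulk RNA, a change in the number of cells of a type and a change in RNA per cell cannot be told apart.

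**Figure D2:**
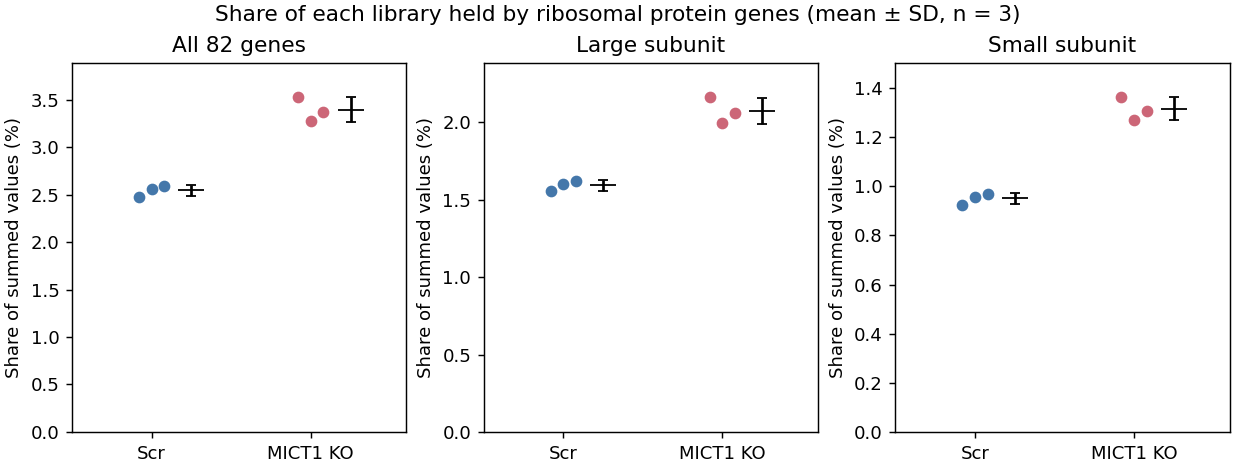
Share of the summed values of each library held by all 82 genes, by the large subunit and by the small subunit, in percent. Each point is 1 library and the bars give mean ± SD (n = 3), and in each panel all 3 MICT1 KO libraries sit above all 3 Scr libraries.

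Other features of the cells moved with the same groups. All 6 adipocyte markers were lower in MICT1 KO, and their summed values ran from 112087 to 132012 in Scr and from 13514 to 19512 in MICT1 KO. Adipoq, which encodes adiponectin, had the largest fall of the 6, with a log2 fold change of -6.66. The study itself reported lower Pparγ, C/ebpβ and Fabp4 in its knockout cells. It called an effect of the deletion on differentiation in culture plausible, which was not tested here. All 4 markers of dividing cells were higher, with sums from 18244 to 19884 in Scr and from 30304 to 34428 in MICT1 KO. Among preadipocyte and fibroblast markers, 4 of 6 could be tested: Col1a1 was higher (0.77), Dlk1 (-3.47) and Pdgfra (-0.19) were lower, Col3a1 (-0.047) did not pass, and sums ran from 35023 to 39919 in Scr and from 47255 to 50700 in MICT1 KO. Of the 6 brown adipocyte markers only Ucp1 passed the filter on low values, and 4 were not analysed here. Ucp1 was lower, with a log2 fold change of -2.71 (adjusted p 0.00112 by limma-trend with Benjamini-Hochberg adjustment). It averaged 25.1 ± 5.0 in Scr and 4.10 ± 4.6 in MICT1 KO (SD, n = 3). The defining gene of the labelled cell type was thus low in both groups, with a MICT1 KO mean below the filter value of 10. The macrophage markers Csf1r and Cd68 were low and did not pass, with sums from 81.4 to 133 in Scr and from 101 to 142 in MICT1 KO. The part of cell makeup in the rise of ribosomal protein mRNAs was not tested. The row for the 45S ribosomal RNA precursor, Rn45s, was uneven within Scr, at 81699, 319163 and 93566 in libraries 1 to 3, and it lay between 82885 and 136619 in MICT1 KO. With it left out of the library total, 70 members were higher and 2 lower.

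Genes of both subunits were mostly higher in MICT1 KO. Of the 32 small subunit genes 30 were higher and 0 lower, with a median log2 fold change of 0.45. Of the 50 large subunit genes 40 were higher and 2 lower, with a median of 0.35. The share of the library rose from 0.950% ± 0.022 to 1.31% ± 0.047 for the small subunit and from 1.59% ± 0.035 to 2.08% ± 0.084 for the large subunit (SD, n = 3 each). The mean log2 level of large subunit genes minus that of small subunit genes was -0.21, -0.26 and -0.18 in Scr libraries 1 to 3 and -0.34, -0.33 and -0.38 in MICT1 KO libraries 1 to 3. The libraries of the 2 groups did not overlap in this difference, which is given as a description since the genes were chosen together. Rows of low value or with copies, described below, enter it in both subunits. Those that did not pass include Rpl26, Rpl34, Rpl35a, Rpl37 and Rpl30 of the large subunit and Rps6 and Rps18 of the small. Their part in the difference was not tested.

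The largest rise was in Rpl12 (ENSMUSG00000038900, on chromosome 2), which encodes a protein at the base of the stalk of the large subunit. Its values were 1865, 1939 and 1823 in Scr libraries 1 to 3 and 3541, 3436 and 3311 in MICT1 KO libraries 1 to 3. Every MICT1 KO library lay far above every Scr library. The log2 fold change was 0.87 (SE 0.058), a fold of 1.83, with an adjusted p of 4.61e-11 by limma-trend with Benjamini-Hochberg adjustment. The stalk itself, which recruits the elongation factors to the ribosome, is made of Rplp0, Rplp1 and Rplp2, and all 3 were higher.

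Rplp0 is the scaffold of the stalk and had the highest level per exon length among the members' own rows, 1766 RPKM (a level per exon length and library total, computed here from the deposited values). Next by RPKM, also by own rows and without the copies described below, came Rps3a1 (1047), Rplp1 (1035), Rps15 (998) and Rpl8 (736), all higher in MICT1 KO, and the lowest were Rpl35a (1.11), Rpl34 (1.49), Rps18 (1.58), Rpl26 (2.07) and Rpl37 (8.60), none of which passed. Rps6-ps4, a copy of Rps6, stood at 1601 RPKM and Rps18-ps4 at 836, above Rpl8. Exon length here covers all annotated exons of a gene, so these ranks depend on the annotation. Rplp0 alone held 9.87% of all members' summed values. Its values were 36436, 38517 and 37923 in Scr against 62176, 55044 and 57123 in MICT1 KO. The groups were far apart and the log2 fold change was 0.63 (SE 0.059). Rplp1 followed at 0.41 (SE 0.056) and Rplp2 at 0.18 (SE 0.053). The row of Rplp2-ps1, a copy by its symbol, was higher by 0.33 (SE 0.058), and Rplp2 summed with it by 0.28 (SE 0.054).

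Rps2, which lies near the mRNA entry of the small subunit, had values of 1886, 2090 and 2189 in Scr against 3881, 3169 and 3641 in MICT1 KO. The groups did not overlap, and the log2 fold change of 0.79 (SE 0.072, adjusted p 7.51e-09 by limma-trend with Benjamini-Hochberg adjustment) was the second largest. Rps10, on the head of the small subunit, stood at 2025, 2193 and 2028 in Scr against 3545, 3124 and 3145 in MICT1 KO. Rps12, also on the head, stood at 3594, 3994 and 3318 against 5687, 5591 and 5499. Both were clear of overlap, with log2 fold changes of 0.65 (SE 0.063) and 0.63 (SE 0.062). Rpsa, which is also known as a laminin receptor, rose by 0.58 (SE 0.064) on the log2 scale, and Rack1, a scaffold protein on the head of the small subunit that is not among the members, rose by 0.33 (SE 0.054).

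**Figure D3:**
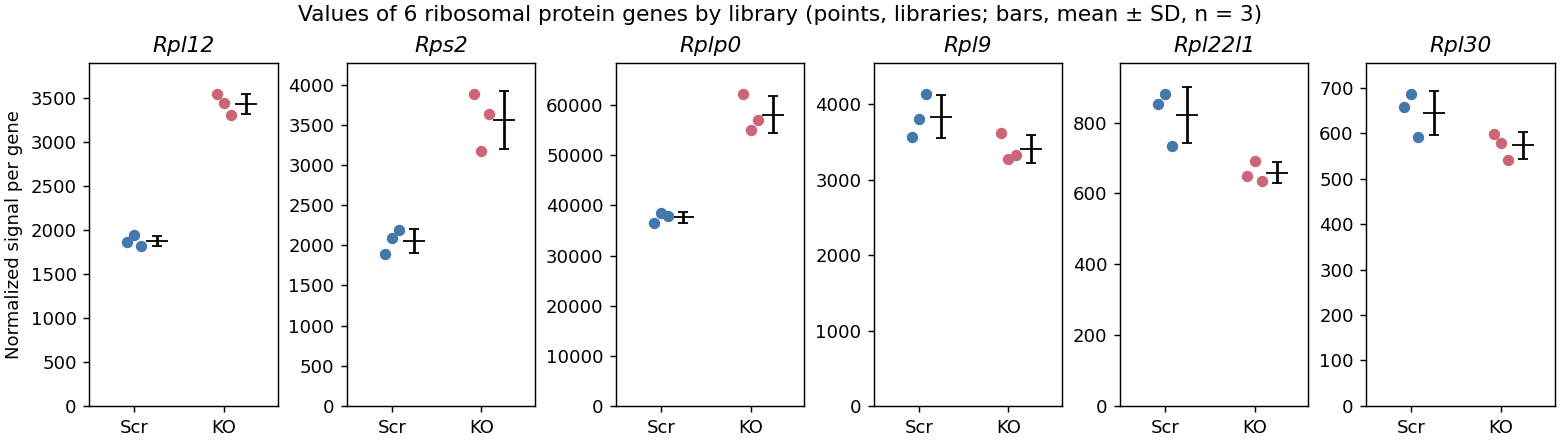
Deposited normalized signal of Rpl12, Rps2, Rplp0, Rpl9, Rpl22l1 and Rpl30 in each library, with a separate axis from 0 for each gene. Points are libraries and bars give mean ± SD (n = 3), and the groups are apart for Rpl12, Rps2, Rplp0 and Rpl22l1 and overlap for Rpl9 and Rpl30.

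The 2 members that fell belong to the large subunit. Rpl22l1 encodes a paralog of Rpl22, and both bind RNA outside the ribosome as well. Its values were 852, 880 and 732 in Scr against 648, 692 and 635 in MICT1 KO. All 3 MICT1 KO libraries lay below all Scr libraries, with a log2 fold change of -0.32 (SE 0.087, adjusted p 0.00405 by limma-trend with Benjamini-Hochberg adjustment). Rpl22 itself moved the other way, from 4188, 4244 and 4212 in Scr to 4918, 4897 and 4992 in MICT1 KO. Its groups were also apart and its log2 fold change was 0.23 (SE 0.051, adjusted p 0.000728 by the same test). The difference between the paralogs was not tested as such.

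Rpl9, a large subunit protein near the base of the stalk, stood at 3570, 3805 and 4133 in Scr against at 3616, 3279 and 3325 in MICT1 KO. The first MICT1 KO library lay above the first Scr library, so the groups overlapped. Its log2 fold change was -0.17 (SE 0.062, adjusted p 0.0244 by limma-trend with Benjamini-Hochberg adjustment). The call was lost when Scr library 2 or 3 or MICT1 KO library 2 or 3 was left out, with adjusted p of 0.0592, 0.144, 0.0868 and 0.0830 by the same test.

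Among the other paralogs that were tested, 0 were lower. Rps27l, which differs from Rps27 in a few residues and is known as a p53 target, rose by 0.46 (SE 0.080) on the log2 scale. Rps27 rose by 0.48 (SE 0.076) in its own row. That row held 49.3% of the sum with Rps27rt, a row with an identical coding sequence, and the sum rose by 0.54 (SE 0.068). Rpl36a rose by 0.46 (SE 0.076), while its paralog Rpl36al had a log2 fold change of 0.060 with a 95% interval from -0.069 to 0.19 and did not pass. Rpl7 rose by 0.28 (SE 0.057), while Rpl7l1, which is linked to ribosome assembly, had 0.057 with an interval from -0.067 to 0.18. Rpl3 (0.22), Rpl10 (0.46), Rpl39 (0.33) and Rps4x (0.53) were higher, and their paralogs Rpl3l, Rpl10l, Rpl39l and Rps4l were not analysed here. Rpl32l, the only member that GENCODE M21 lists as a processed pseudogene, was low at 81.1 ± 3.9 in Scr and 125 ± 31 in MICT1 KO (SD, n = 3), with an adjusted p of 0.0219 by limma-trend with Benjamini-Hochberg adjustment.

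Rpl5 and Rpl11, which bind the 5S ribosomal RNA and can restrain the p53 ligase MDM2, were both higher, by 0.19 (SE 0.056) and 0.36 (SE 0.057) on the log2 scale. Rps27a, made as a fusion with ubiquitin, rose by 0.30 (SE 0.058). Fau, whose product is cut to give a small subunit protein, rose by 0.71 (SE 0.055). Rpl4, one of the most abundant members, had 0.11 (SE 0.053, adjusted p 0.0743 by limma-trend with Benjamini-Hochberg adjustment) although its 3 MICT1 KO libraries all lay above its Scr libraries.

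Several members often serve as reference genes. Rplp0 rose by 0.63 and Rpl13a by 0.46 (SE 0.052) on the log2 scale. Eef1a1, an elongation factor and the reference of the study's own qPCR, rose by 0.45 (SE 0.061), from 97169 ± 2462 to 132514 ± 5957 (SD, n = 3). Rps18, the next common reference, could not be read from its own row, as follows.

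For some members the reads stood in rows of near-identical copies. Ribosomal protein mRNAs have left many processed pseudogenes in the genome, and the deposited table had 18 rows whose transcript matched the coding sequence of a member by at least 95% or that carried a member's symbol with -ps. These 18 rows belonged to 15 members. The pairs of stretches below, taken from the coding sequences of GENCODE M21 (GRCm38) show how little separates a member from its copy, with capitals at the base that differs.

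Rpl30: cgtgctgggctacaaGcagactctgaagat

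Gm12191: cgtgctgggctacaaAcagactctgaagat

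Rpl37: ccgtgagggaacaacGccgaaacccaagag

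Rpl37rt: ccgtgagggaacaacAccgaaacccaagag

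Rps6: tccttccccgccaccggctgtcagaagctc

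Rps6-ps4: tccttccccgccaccggctgtcagaagctc

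Over the whole coding sequence, Gm12191 differs from Rpl30 at 1 of 345 bases and Rpl37rt from Rpl37 at 1 of 291, and Rps6-ps4 is identical to Rps6 over 747 bases. Rps6 encodes the substrate of the S6 kinases, and only 1.44% of the summed signal of Rps6 and its copy stood in the Rps6 row. The Rps6 row held 246, 254 and 303 in Scr against 327, 264 and 323 in MICT1 KO. These overlapped and did not pass, with a log2 fold change of 0.19 (adjusted p 0.234 by limma-trend with Benjamini-Hochberg adjustment). The Rps6-ps4 row held 17127, 18005 and 18604 in Scr against 22850, 20364 and 20780 in MICT1 KO, without overlap. Summed, the pair was higher by 0.25 (SE 0.057, adjusted p 0.000832 by the same test on the summed table).

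Rps18, on the head of the small subunit, was similar. Its row held between 47.9 and 91.8 in each of the 6 libraries. Rps18-ps4 was matched by its symbol only, and GENCODE M21 lists it as a lincRNA. It held 12413, 13127 and 13336 in Scr against 17036, 15665 and 16379 in MICT1 KO. The sum was higher by 0.33 (SE 0.054, adjusted p 1.86e-05 by limma-trend with Benjamini-Hochberg adjustment on the summed table), whereas the Rps18 row alone had a log2 fold change of 0.069 with a 95% interval from -0.54 to 0.67.

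Rpl37 and Rpl30 differed from these. The Rpl37 row fell short of a call at -0.15 (adjusted p 0.341 by limma-trend with Benjamini-Hochberg adjustment), with 258, 238 and 250 in Scr against 222, 234 and 218 in MICT1 KO. Its groups were apart, but it held only 3.63% of the sum with Rpl37rt. The sum had a log2 fold change of 0.042 (95% interval -0.072 to 0.16, adjusted p 0.535 by the same test), the smallest of the 15 in size.

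Rpl30, a large subunit protein that also binds RNA to control its own splicing in yeast, had 657, 685 and 590 in Scr against 599, 579 and 540 in MICT1 KO. The groups overlapped, and the log2 fold change was -0.17 (SE 0.090, adjusted p 0.118 by limma-trend with Benjamini-Hochberg adjustment). The Gm12191 row held 2043, 2060 and 2390 in Scr against 1948, 1544 and 1601 in MICT1 KO, with no overlap. Summed over Rpl30 and its 3 copies, the level was lower in MICT1 KO by limma-trend, with a log2 fold change of -0.30 (SE 0.069, adjusted p 0.000963). Rpl22l1 summed with its copy Gm15421 was also lower, at -0.27 (SE 0.076, adjusted p 0.00406 by the same test). With every copy added to its member, 72 members were higher and 3 lower, and the share of the library held by the members was 3.02% ± 0.071 in Scr and 3.98% ± 0.15 in MICT1 KO (SD, n = 3 each).

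**Figure D4:**
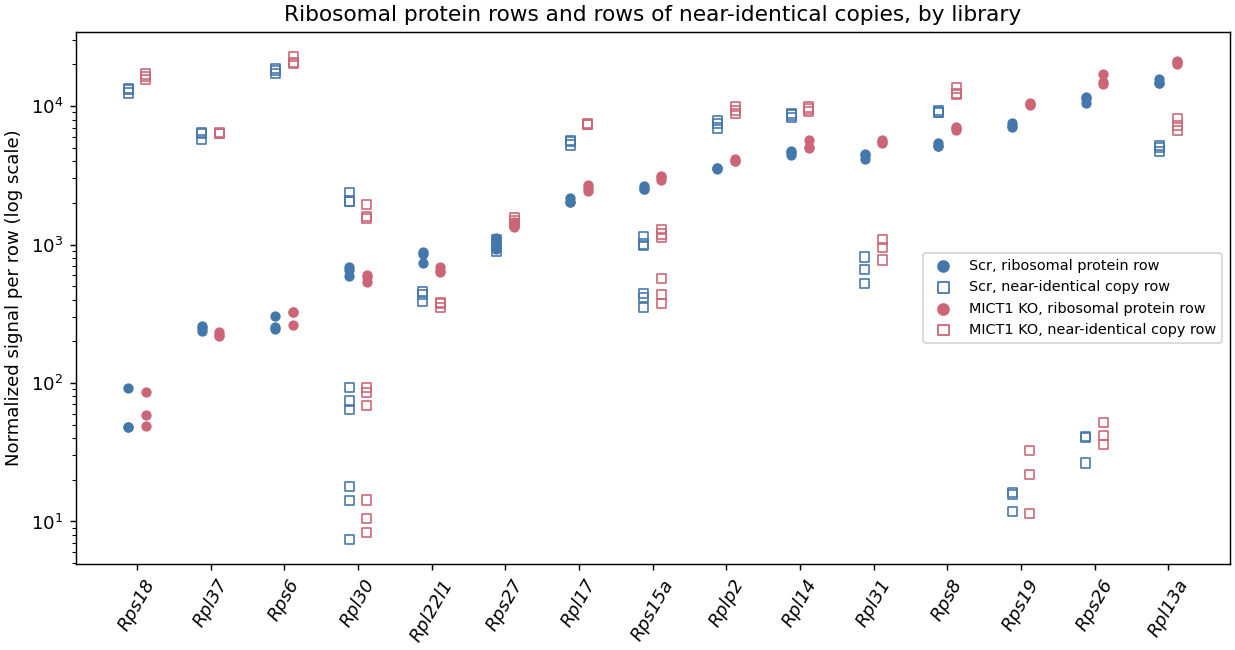
Deposited normalized signal, on a log axis, in each library for the 15 members with copies (filled circles) and for the copies' rows (open squares). The copies of Rplp2, Rps18 and Rps19 were matched by symbol only. Scr is blue and MICT1 KO red, and for Rps18, Rps6 and Rpl37 the copy's row holds nearly all of the signal.

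The form of the values was looked at as well. When each library was multiplied back by its own step, between 88.8% and 89.1% of values under 1000 came out whole within 0.01. Of all 8617 genes under 1000 in every library, 86.0% were whole in all 6 libraries. Of the 11 members under 1000 in every library, 5 (45.5%) were, namely Rpl26, Rpl34, Rpl35a, Rpl38 and Rps28. Rpl22l1, Rpl30, Rpl37 and Rps6, which all have copies in the table, were whole in 0 libraries, and Rps18 in 1. Rpl32l, a processed pseudogene for which no copy was listed, was whole in 4. Whether copies account for values that are not whole was not tested. Rpl26, Rpl34 and Rpl35a had means under 100, no copy in the table by the rule above, and log2 fold changes of 0.26, 0.35 and 0.093 with standard errors of 0.29, 0.26 and 0.24, so a change of the size of the members' median, 0.39, lay within 2 standard errors of 0 in these rows.

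Other genes that build or regulate ribosomes were counted in the same way, to be read beside the 28.5% of all tested genes that were higher and the 28.3% that were lower. Among ribosome assembly factors more were lower than higher, with 3 of 33 higher (9.09%), 16 lower (48.5%) and a median log2 fold change of -0.17. The called rises were led by Sbds, which releases a factor from the new large subunit (0.41), and Npm1, a nucleolar chaperone (0.20). The largest falls were in Wdr12 (-0.53), part of a complex that processes large subunit RNA, and Rpf2 (-0.37), which brings in the 5S particle. Of the genes for RNA polymerase I and its factors, 2 of 14 were higher (14.3%) and 6 lower (42.9%), with a median of -0.13. Polr1a, the largest subunit of the polymerase, had -0.49 and Taf1b, a factor at the ribosomal DNA promoter, had -0.48, while Znrd1 (0.56) and Taf1c (0.28) were higher.

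Of the genes with TOP mRNAs that encode none of the members, 7 of 17 were higher (41.2%) and 5 lower (29.4%), beside 28.5% and 28.3% of all tested genes, with a median of 0.11. Fau (0.71) and Tpt1 (0.51), a growth-related protein, led the rises. Eif3e (-0.75) and Eif4b (-0.60), both initiation factors, led the falls. In the mTORC1 and S6 kinase list 2 of 20 were higher (10.0%) and 9 lower (45.0%), with a median of -0.19. Rps6ka2, an S6 kinase of the RSK family, rose by 1.30 from 134 ± 18 to 329 ± 11 and Sesn1, a stress-responsive inhibitor of mTORC1, by 0.47. Deptor (-0.81), a subunit that inhibits mTOR, and Ddit4 (-0.61), an inhibitor upstream of mTORC1, had the largest falls. Larp1, which holds TOP mRNAs in check, had -0.60 and the kinase Mtor itself -0.065, which did not pass. Of 5 genes for nascent chain and ribosome-bound factors, 1 was higher (Hspa14, 0.22) and 2 were lower (Naca, -0.23, and Serbp1, -0.21), with a median of -0.080.

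The mitochondrion has its own ribosome, which translates the few proteins encoded there. Of its 78 nuclear genes listed in the deposited file, 3 were higher (3.85%) and 36 lower (46.2%), beside 28.5% and 28.3% of all tested genes, with a median log2 fold change of -0.22. Mrps35 (-0.92) and Mrps31 (-0.87) fell most, and Mrpl33 and Mrpl54 (both 0.29) rose most. Their summed values ran from 53510 to 56202 in Scr and from 43970 to 47832 in MICT1 KO, without overlap, while those of the cytosolic members ran from 399244 to 425506 and from 532367 to 580486. No test of the difference between the lists was made.

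**Figure D5:**
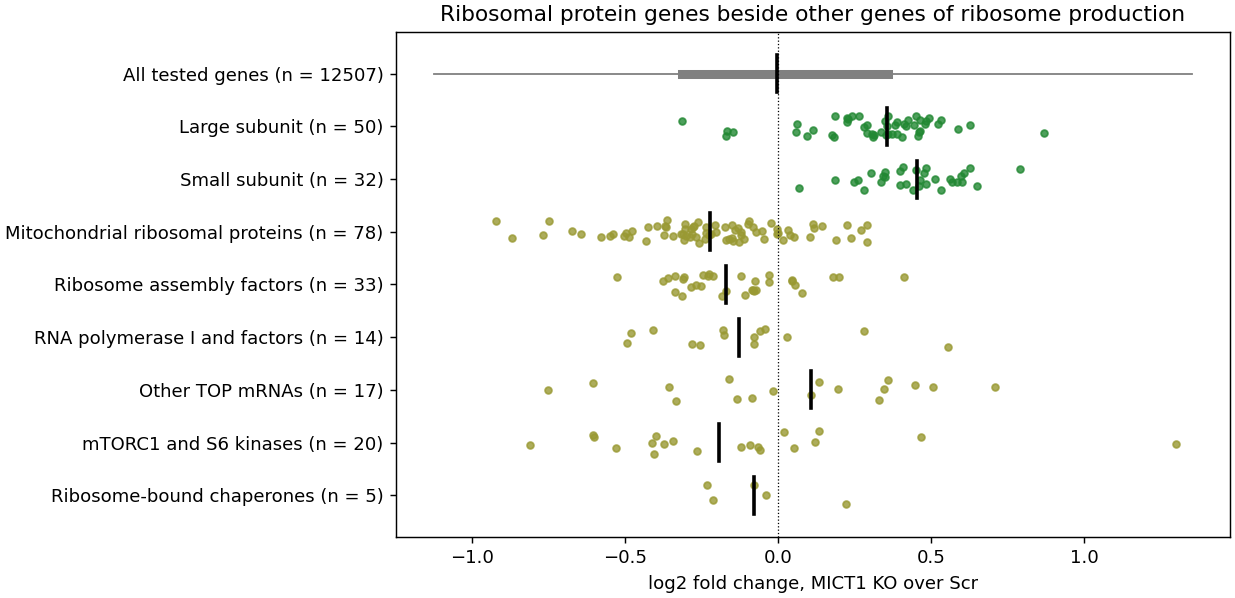
Log2 fold change in MICT1 KO over Scr for the large and small subunit genes (green) and for other gene lists of ribosome production and control (olive), 1 point a gene, with a black bar at each median. For all tested genes the thick bar spans the quartiles and the thin line the 5th to 95th percentile, and the medians of the large and small subunit, 0.35 and 0.45, are the highest shown.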

How the data were processed

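RNA-seq of 3 Scr and 3 MICT1 KO libraries was used, mapped to groups by the sample labels. The authors deposited 1 normalized signal for each gene and library. Its form points to estimated reads over a library size factor. Alignment was to NCBI38/mm10 with Partek software. The submitters' processing notes also list STAR and DESeq2 without roles, and the gene annotation and counting model are not given in the sources used here. Labels and methods describe library preparation differently. Every listed gene is above 0 in all 6 libraries.

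The members, gene lists and tests were chosen with earlier results of these data known. Genes that reached 10 in 3 or more libraries were tested on log2(value + 1) with limma-trend (limma 3.58.1, R 4.3.3) and the Benjamini-Hochberg method at 0.05. Fold changes on this scale understate low genes. With 3 libraries a group, the smallest p of an exact permutation test is 0.1. The fit was tested on simulated data for MICT1 KO against Scr, where 177 of 189 changed genes among 12393 were recovered with 7 false calls. Of the changed genes 133 differed by at least 2-fold, a size that no member reached, and 130 of these were called. In the real data a far larger share of genes was called, 56.9%. The simulation thus does not give the recovery of modest rises in such data.

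Members were named if they went against the majority, were among the 5 largest rises or falls or the 5 highest or lowest per exon length, or belonged to fixed paralog, stalk, 5S, ubiquitin-fusion and reference groups. Each list gave its 2 largest rises and falls. A gene of the fixed groups is not reported here. Rpl7a, Rpl27a, Rpl4, Rpl30, Rpl32l, Rpl38, Rps28, Larp1 and Mtor were named after their values were seen. Copies were found with blastn 2.17.0 against GENCODE M21 (at least 95% identity over 80% of the coding sequence and 50% of the copy). Rplp2-ps1, Rps18-ps4 and Rps19-ps3 were instead taken by symbol. Adding copies to members, and a library total without Rn45s, were chosen after seeing the data. Other alternatives were library totals, TMM, pseudocounts of 0.5 and 5, and no filter. Also run were only genes with a maximum RPKM of at least 4, limma-voom, the replicate number as a block and each library left out.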

Additional observations from a re-analysis of the deposited data

How the results depend on the processing

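The number of members higher in MICT1 KO stayed between 68 and 72 and their median log2 fold change between 0.36 and 0.41 in every alternative run. The number lower ranged from 1 to 2 as each library was left out, and reached 3 with copies added. Rps18 changed sign without Scr library 1 (-0.087), Scr library 3 (-0.080) or MICT1 KO library 3 (-0.15), with a range from -0.15 to 0.37 over the libraries left out in turn, and Rpl37 changed sign with copies added (0.042). None of the values of changed sign passed the test by limma-trend. No scaling moved the median of all genes by over 0.1.

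The replicate numbers were not shown to pair the libraries, since deviations of same-numbered libraries correlated at -0.024, -0.015 and 0.064. With the replicate block 70 members were higher and 2 lower, and the median was 0.39. The total without mitochondrially encoded genes was not run, since 0 such genes were found in the table. The rows of Rpl26, Rpl34 and Rpl35a have wide errors at their low values, and a row cannot show which copy its reads came from.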
